A study of Mus musculus with 4 samples.

Results

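The Z-disc and the M-band are the protein lattices that hold the striated muscle sarcomere together, and 10 genes that encode their structural proteins were followed here in fetal brown adipose tissue (BAT). They were taken by name as established components of these lattices, with earlier results of these data known. Actn2, Actn3, Ldb3, Tcap, Myot, Myoz1, Myoz2 and Csrp3 stand for the Z-disc, and Myom1 and Myom2 for the M-band. All 10 were found among the 22298 genes of the count table, and all 10 had enough counts to be tested. RNA-seq had been made from BAT of C57BL/6 mouse fetuses (C57BL/6J in the methods of the study) at embryonic day E18.5, and the question was how fructose drunk by the dam in pregnancy changes this tissue. The control group (2 libraries) came from dams on tap water, and the fructose group (2 libraries) from dams on 20% (w/v) fructose water. All 4 libraries were labelled male, no genetic change was carried by either group, and how many fetuses or litters stand behind a library was not given in the sources used here.

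In striated muscle, thin actin filaments of opposite polarity are cross-linked by alpha-actinin at the Z-disc, while thick myosin filaments are tied together by myomesins at the M-band. The giant protein titin spans from one lattice to the other, and smaller Z-disc proteins such as telethonin and the myozenins dock on titin or on alpha-actinin and link the lattice to signalling. Brown adipocytes have no sarcomeres, but they share a developmental origin with skeletal muscle, and interscapular BAT lies directly on muscle.

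The libraries held 18542897 to 23645147 counts. Transcripts of the mitochondrial genome took a larger part of the fructose libraries (10.8% and 11.2%) than of the control ones (5.89% and 6.49%). Genes of the Y chromosome (Ddx3y, Eif2s3y, Uty and Kdm5d) had 422 and 390 counts together in control libraries 1 and 2 and no count in fructose library 1 or 2, where 3 counts would be 0.134 and 0.127 CPM, so both fructose libraries went against their label of male fetuses. This difference coincides with the diet groups in every library, hence diet and the difference in Y-linked counts cannot be told apart in any value below, and no fit without the 2 fructose libraries is possible.

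To show the DNA next to which these transcripts start, the 250 bases before the start were read from the RefSeq promoter table (build GRCm38.p6) for the members it holds, which are Actn2, Ldb3, Myoz2, Myom1 and Csrp3. Each run reads 5′ to 3′ toward the gene, with motif matches in capitals, searched on both strands. The motifs were the E-box, CANNTG, which myogenic bHLH factors read, and the sites of MEF2 and of serum response factor (the CArG box). Also searched were the element bound by TEAD factors, CATTCC, and the core promoter motif that positions the polymerase, TATAAA. The windows are chr13:12340733-12340982 (minus strand) for Actn2, chr14:34588682-34588931 (minus) for Ldb3, chr3:123034988-123035237 (minus) for Myoz2, chr17:71019307-71019556 (plus) for Myom1 and chr7:48848052-48848301 (minus) for Csrp3.
Actn2: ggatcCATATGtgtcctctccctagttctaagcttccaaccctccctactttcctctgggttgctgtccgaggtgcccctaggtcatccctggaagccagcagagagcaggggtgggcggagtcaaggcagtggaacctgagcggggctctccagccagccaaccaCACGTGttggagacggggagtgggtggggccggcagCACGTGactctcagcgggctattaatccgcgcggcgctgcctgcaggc
Ldb3: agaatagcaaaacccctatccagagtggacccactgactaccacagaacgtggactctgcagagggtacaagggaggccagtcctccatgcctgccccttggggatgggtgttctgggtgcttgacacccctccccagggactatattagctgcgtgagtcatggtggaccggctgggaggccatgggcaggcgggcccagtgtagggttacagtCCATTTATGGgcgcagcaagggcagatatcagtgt
Myoz2: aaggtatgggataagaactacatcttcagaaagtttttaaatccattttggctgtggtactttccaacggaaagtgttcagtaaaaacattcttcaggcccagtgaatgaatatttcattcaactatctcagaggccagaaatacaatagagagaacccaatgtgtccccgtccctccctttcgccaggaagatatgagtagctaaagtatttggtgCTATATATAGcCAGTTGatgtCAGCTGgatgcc
Myom1: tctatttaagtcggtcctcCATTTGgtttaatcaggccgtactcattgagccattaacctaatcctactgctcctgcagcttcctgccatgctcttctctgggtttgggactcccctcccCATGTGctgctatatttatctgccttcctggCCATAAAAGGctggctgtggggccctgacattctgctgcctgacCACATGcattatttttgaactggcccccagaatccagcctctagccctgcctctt
Csrp3: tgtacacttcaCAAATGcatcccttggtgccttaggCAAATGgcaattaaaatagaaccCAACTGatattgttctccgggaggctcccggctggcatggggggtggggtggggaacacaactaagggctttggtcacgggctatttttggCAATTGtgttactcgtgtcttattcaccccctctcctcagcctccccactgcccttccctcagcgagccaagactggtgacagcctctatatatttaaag

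Of the 7 windows that the table holds for these 5 genes (Ldb3 and Csrp3 have 2 each, and those of Ldb3 overlap), 5 held an E-box, against 66.2% of all 32851 windows of the same length. The CArG box was matched in 3 of the 7 windows, against 1.47% of all windows. These were the 2 overlapping Ldb3 windows and the Myom1 window. Within the Ldb3 window printed here, CCATTTATGG begins 35 bases before the transcript start. Within the Myom1 window, CCATAAAAGG begins 99 bases before it. The Myoz2 window held a MEF2 match, CTATATATAG, 33 bases before the start, a motif found in 2.92% of all windows, followed by the E-box CAGCTG at 12 bases, found in 13.0%. The Csrp3 window held 4 E-boxes, 3 of them more than 190 bases from the start, and the Actn2 window held the palindrome CACGTG at 84 and 48 bases. The TEAD and core promoter motifs were in none of the 7 windows, against 12.6% and 12.4% of all. A match describes letters and was not tested for binding.

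All 10 genes had a higher level in CPM (counts divided by the TMM-scaled library size) in both fructose libraries than in either control library, and 9 of the 10 rose in the quasi-likelihood test of edgeR, adjusted after Benjamini-Hochberg over all 12888 genes tested. None fell. Over all genes tested, 15.5% were called higher and 10.7% lower (2001 and 1379 genes, or 2242 and 859 when scaled by library size alone), and 33.4% had both fructose libraries above both control libraries (31.6% below). The median log2 fold change of the 10 genes was 1.22, with a range of 0.72 to 2.62, beside a median of 0.002 over all tested genes. Their summed level was 24.9 and 35.4 CPM in the control libraries and 78.6 and 57.9 CPM in the fructose libraries, or 2.26-fold higher in the means (30.2 ± 7.44 against 68.3 ± 14.7 CPM, SD, n = 2 each). The gene that did not pass, Myom2, had an unadjusted p of 0.026 in the same edgeR fit, and at an unadjusted p under 0.05 with a fold above 1.3 all 10 genes were higher, beside 17.6% of all genes (6.18% were lower). In bulk tissue, more cells of a type and more RNA per cell cannot be told apart.

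**Figure D1:**
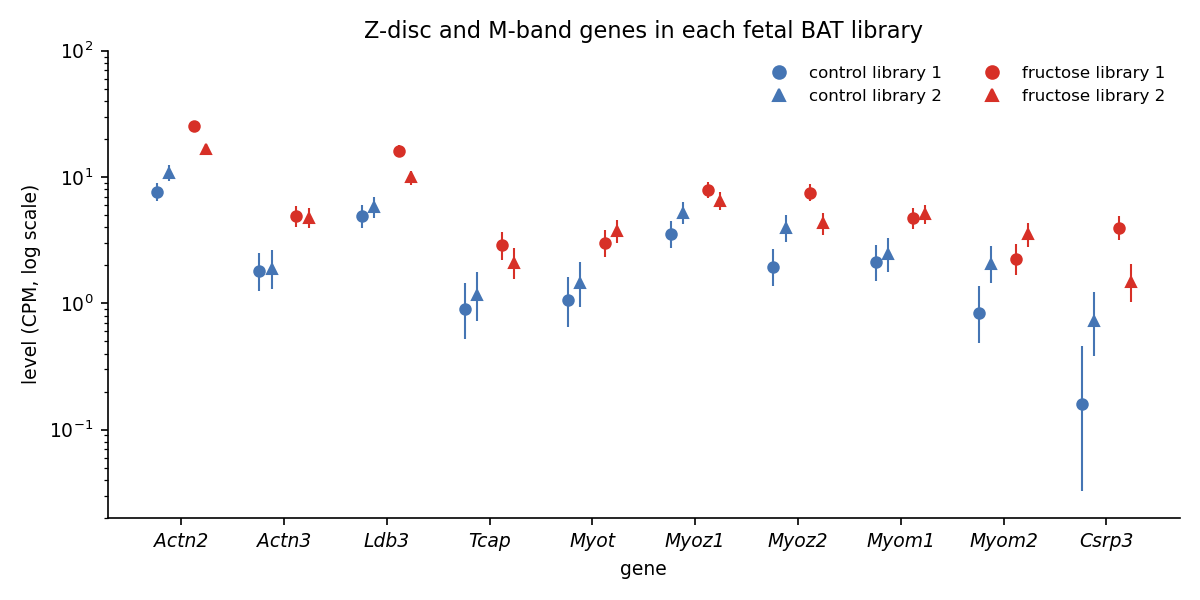
Level of each of the 10 genes in CPM (log axis) in the 4 libraries, with blue for control, red for fructose, circles for library 1 and triangles for library 2, and bars for the exact Poisson 95% interval of the count, which covers counting error only. Both red points lie above both blue points for every gene, by the smallest margin in Myoz2 and Myom2 and with the widest control bars in Csrp3.

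Divided by gene length, so that genes can be set beside each other, Actn2 was the most abundant of the 10 in both groups (2.43 ± 0.589 CPM per kb in control, 5.52 ± 1.62 in fructose, SD, n = 2), and Myoz1 was next (2.31 ± 0.627 and 3.81 ± 0.53). Their libraries overlapped in the control group and did not in the fructose group. Tcap, Ldb3, Myoz2, Actn3 and Myot followed in that order in both groups, from 1.09 down to 0.565 CPM per kb in control and from 2.61 down to 1.52 in fructose, each within the spread of its neighbour in at least 1 group. The low end held Myom1 (0.218 in control and 0.468 in fructose), Csrp3 (0.165 and 1.02) and Myom2 (0.164 and 0.326). Csrp3 stood above both myomesins in the fructose libraries, whereas the 3 overlapped in control. The lengths are those of all annotated exons, which for Myom1 and Myom2 far exceed their longest transcripts and lower these values.

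Actn2 encodes the alpha-actinin of all striated muscle fibres, which cross-links actin at the Z-disc (ENSMUSG00000052374, chr13:12269426-12340760, minus strand). It had 145 and 195 counts in control and 572 and 407 in fructose, that is 7.65 and 10.8 against 25.3 and 16.6 CPM. Fructose library 1 was the highest and the groups did not overlap. The log2 fold change was 1.18 ± 0.21 (SE), a 2.27-fold rise, with an adjusted p of 0.0025 by edgeR's quasi-likelihood test. Actn3, the alpha-actinin of fast fibres (ENSMUSG00000006457, chr19:4861216-4877909, minus strand), had 34 and 34 counts in control and 111 and 116 in fructose (1.79, 1.89, 4.91 and 4.74 CPM). Here the libraries of a group were almost equal, and the lowest fructose library stood 2.51 times above the highest control. The change of Actn3 was 1.39 ± 0.25 (log2, SE; edgeR adjusted p = 0.0026).

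The alpha-actinins of non-muscle cells, Actn1 and Actn4, did not pass the test, although Actn4 was called lower with the length trend removed (-0.31, edgeR adjusted p = 0.023). Actn4, found at stress fibres and cell junctions, had 7453 and 7349 counts in control and 7899 and 8577 in the deeper fructose libraries, a log2 fold change of -0.20 (edgeR adjusted p = 0.093). Actn1 had 446 and 410 counts in control and 515 and 558 in fructose (log2 fold change -0.02, 95% interval -0.26 to 0.21, edgeR adjusted p = 0.90). As a share of all alpha-actinin transcripts per length, Actn2 made up 2.84% and 3.84% in control and 9.59% and 6.51% in fructose, Actn3 0.870% and 0.877% against 2.44% and 2.43%, while Actn4 held 90.3% and 89.7% against 82.0% and 84.9%. The muscle alpha-actinins thus remained the minor part of the family in all 4 libraries.

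Ldb3 encodes ZASP, a PDZ and LIM domain protein that binds alpha-actinin and stabilizes the Z-disc (ENSMUSG00000021798, chr14:34526603-34588682, minus strand). Counts of 93 and 104 in the control libraries rose to 365 and 243 in the fructose libraries (4.91, 5.77, 16.1 and 9.92 CPM), with fructose library 1 again the highest and no overlap. It rose by 1.28 ± 0.23 on the log2 scale (SE; edgeR adjusted p = 0.0024), 2.44-fold. Among its relatives with both domain types, Pdlim5, an adaptor of muscle and many other tissues, rose by 0.38 (edgeR adjusted p = 0.017), but its call was lost once the trends with transcript length and GC content were removed (0.04, adjusted p = 0.85), and also without fructose library 1 (adjusted p = 0.080) or 2 (0.075). Pdlim3, which is the muscle-enriched ALP, had a log2 fold change of 0.63 without passing the test (adjusted p = 0.14). It passed without control library 2 (0.96, adjusted p = 0.011) or fructose library 2 (0.98, 0.030) and was at 0.20 without fructose library 1. Pdlim1, Pdlim2, Pdlim4 and Pdlim7 had values between -0.21 and 0.17 without passing. Ldb3 took 6.01% and 7.35% of this family per length in control and 16.2% and 11.9% in fructose.

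Myot encodes myotilin, which binds alpha-actinin and bundles actin at the Z-disc (ENSMUSG00000024471, chr18:44334074-44355724, plus strand). It had 20 and 26 counts in control and 68 and 91 in fructose (1.06, 1.44, 3.01 and 3.71 CPM), and in contrast to Actn2 and Ldb3 the higher fructose library was library 2. The groups stood 2.09 times apart at their nearest libraries. The rise was 1.43 ± 0.31 (log2, SE; edgeR adjusted p = 0.0065), and without fructose library 2 it was 1.27 and just missed the threshold (adjusted p = 0.053). Both relatives in its family rose as well: Mypn (myopalladin, of the striated muscle Z-disc) by 1.59 (edgeR adjusted p = 0.0092) and Palld (palladin, an actin organizer of many cell types) by 0.41 (adjusted p = 0.032). Without fructose library 1 the adjusted p of Mypn was 0.074, and that of Palld was 0.17 once the length and GC trends were removed. Palld also lost its call without control library 1, fructose library 1 or fructose library 2 (adjusted p of 0.10, 0.14 and 0.099). Within this family, Myot held 23.8% and 27.4% of the transcripts per length in control and 35.5% and 42.2% in fructose, while Palld held the larger part (70.3% and 67.1% against 53.4% and 49.3%).

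Tcap encodes telethonin, the small cap that joins the ends of titin molecules at the Z-disc (ENSMUSG00000007877, chr11:98383811-98384953, plus strand). It was among the lowest of the 10 in counts, with 17 and 21 counted in control against 65 and 51 in fructose (0.897, 1.16, 2.87 and 2.08 CPM), and the groups did not overlap. The log2 fold change was 1.26 ± 0.35 (SE), or 2.40-fold, with an adjusted p of 0.020 by edgeR. The call was lost without fructose library 1 (1.02, adjusted p = 0.18) and with DESeq2 (adjusted p = 0.088).

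**Figure D2:**
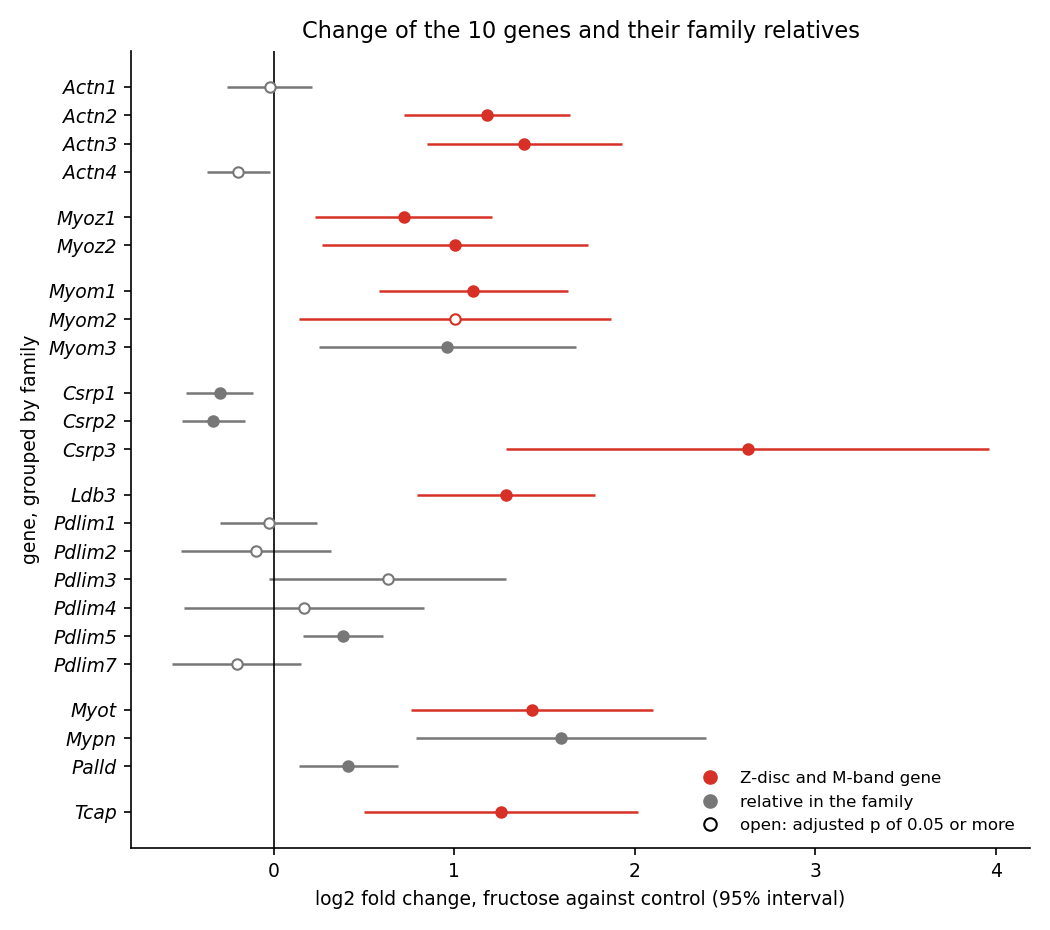
Log2 fold change of fructose against control with its 95% interval for the 10 genes (red) and the tested relatives in their protein families (grey), with filled points for an adjusted p under 0.05 by edgeR. The red points all lie to the right of 0, from 0.72 (Myoz1) to 2.62 (Csrp3), Myom2 is the open red point, and the grey points of Csrp1 and Csrp2 lie to the left.

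The myozenins (calsarcins) tether calcineurin to alpha-actinin, with Myoz1 the form of fast fibres and Myoz2 that of slow fibres and heart. Myoz1 (ENSMUSG00000068697, chr14:20649107-20656540, minus strand) had 67 and 94 counts in control and 179 and 159 in fructose (3.54, 5.21, 7.91 and 6.49 CPM). Its lowest fructose library was 1.25 times its highest control, and its change of 0.72 ± 0.22 (log2, SE; edgeR adjusted p = 0.035) was the smallest of the 10. Myoz2 (ENSMUSG00000028116, chr3:123006206-123035015, minus strand) had 37 and 71 counts in control and 170 and 105 in fructose (1.95, 3.94, 7.52 and 4.29 CPM). Control library 2 and fructose library 2 were only 1.09 times apart. The log2 fold change of Myoz2 was 1.0 ± 0.34 (SE), 2.0-fold, with an edgeR adjusted p of 0.046.

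Both myozenin calls depended on single libraries. Without control library 1 the values were 0.46 (adjusted p = 0.13) for Myoz1 and 0.57 (0.087) for Myoz2, and without fructose library 1 they were 0.57 (0.17) and 0.55 (0.31), all from edgeR. Myoz2 has the lowest GC content of the 10 genes (39.7%), and with the GC trend across genes removed its log2 fold change was 0.46 (edgeR adjusted p = 0.41). DESeq2 gave adjusted p-values of 0.10 and 0.072. Myoz3 was counted at 5, 5, 7 and 4 and was too low to be tested. The share of Myoz1 in the family per length overlapped between the groups (74.3% and 69.1% in control, 64.7% and 72.5% in fructose), as did that of Myoz2, while the few counts of Myoz3 made up 3.05% and 2.02% in control and less, 1.39% and 1.0%, in fructose. The Myoz2 value also moved upward without control library 2, to 1.59.

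At the M-band, Myom1 encodes myomesin 1, the cross-linker of thick filaments found in all striated muscle (ENSMUSG00000024049, chr17:71002633-71126856, plus strand). It had 40 and 44 counts in control and 107 and 124 in fructose (2.11, 2.44, 4.73 and 5.06 CPM), with little spread in either group. The rise was 1.11 ± 0.24 (log2, SE; edgeR adjusted p = 0.0068), 2.15-fold. Myom1 shares 207 exon bases with Myl12a on the opposite strand, and reads there could not be assigned, since whether strand was used in counting was not given in the sources used here. Myom2, the M-protein of fast fibres and heart (ENSMUSG00000031461, chr8:15057653-15133541, plus strand), had 16 and 37 counts in control and 51 and 86 in fructose (0.844, 2.05, 2.26 and 3.51 CPM). Control library 2 and fructose library 1 differed by only 1.10 times. Its log2 fold change of 1.0 ± 0.40 (SE, 95% interval 0.14 to 1.87) did not pass, with an edgeR adjusted p of 0.081.

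The Myom2 call depended on the choice of libraries. Its log2 fold change was 0.49 without control library 1 and 1.77 without control library 2, where it passed (edgeR adjusted p = 8.7e-04), and it also passed without fructose library 1 (1.28, adjusted p = 0.034), and was at 0.65 without fructose library 2. The third myomesin, Myom3, a form enriched in fibres of intermediate speed, rose by 0.96 with an edgeR adjusted p of 0.048, which became 0.21 without control library 1, 0.057 without fructose library 1 and 0.25 without fructose library 2. Within the myomesin family the shares per length overlapped between groups for all 3 genes: Myom1 held 41.2% and 28.7% in control and 38.5% and 33.1% in fructose, Myom2 19.5% and 28.5% against 21.7% and 27.1%, and Myom3 39.3% and 42.9% against 39.9% and 39.8%. The annotated exon lengths far exceed the longest transcripts of Myom1 and Myom2, so the order of the genes is uncertain. In counts, Myom1 (40, 44, 107 and 124) was above Myom3 (22, 38, 64 and 86) in every library.

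Csrp3 encodes muscle LIM protein, a Z-disc and nuclear protein of slow muscle and heart (ENSMUSG00000030470, chr7:48830398-48848033, minus strand). It had 3 and 13 counts in control and 90 and 36 in fructose, that is 0.158, 0.721, 3.98 and 1.47 CPM. This was the widest spread within groups and also the largest change among the 10 genes. The log2 fold change was 2.62 ± 0.61 (SE), a 6.17-fold rise with a 95% interval of 2.44 to 15.6 (edgeR adjusted p = 0.0095), and 0.140% of all tested genes had a higher value. Control library 1 lay at the floor of 3 counts, so the size of the fold rests on few counts. Without control library 2 the log2 fold change was 4.05, and without fructose library 1 it was 1.75 and did not pass (adjusted p = 0.076). The value was 1.90 without control library 1 and 3.18 without fructose library 2, where it passed.

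The relatives of Csrp3 in non-striated cells had the opposite sign. Csrp1, the LIM protein of smooth muscle and other cells, fell by 0.30 (edgeR adjusted p = 0.023) and Csrp2 fell by 0.33 (adjusted p = 0.011). Both calls were lost once the length and GC trends were removed (-0.06 and -0.09, adjusted p of 0.68 and 0.54), whereas Csrp3 was at 2.65 in that fit. Csrp1 also lost its call without fructose library 2 (adjusted p = 0.25) and Csrp2 without fructose library 1 (0.091). Csrp3 remained a trace member of its family, at 0.058% and 0.27% of its transcripts per length in control and 1.80% and 0.68% in fructose.

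**Figure D3:**
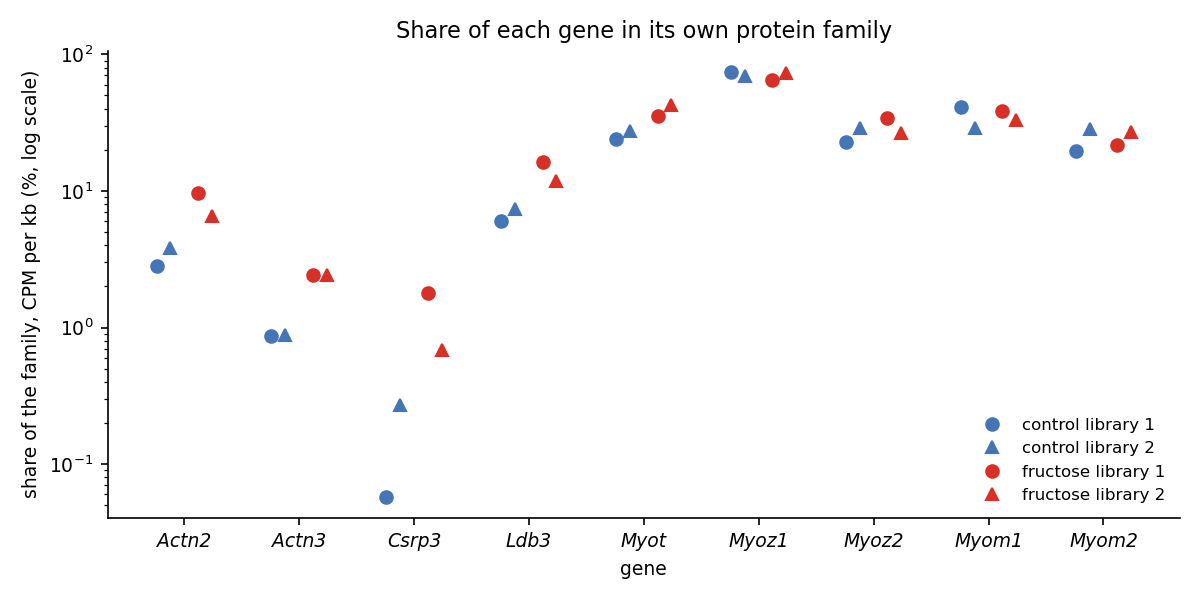
Share of each of 9 genes in the summed CPM per kb of its own protein family (log axis), in the 4 libraries, with blue for control and red for fructose. Actn2, Actn3, Csrp3, Ldb3 and Myot take a larger share in both fructose libraries, while the shares of Myoz1, Myoz2, Myom1 and Myom2, whose families hold muscle genes only, overlap between the groups. A share depends on which relatives are counted in the family, and no test was made.

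Of 54 further genes of the Z-disc and M-band or of the same families, 49 could be tested, and 24 rose, 2 fell (Csrp1 and Csrp2) and 23 did not pass, with a median log2 fold change of 0.50. Split by kind, 4 of the 13 tested family relatives rose, and of the 36 tested partner proteins 20 rose and none fell. Over all tested genes, 15.5% were called higher and 10.7% lower. With the length and GC trends removed, 15 of the relatives and partners rose, beside 699 of all 12888 genes tested. Partners with some of the highest log2 fold changes were Trim54 (MURF3, a ubiquitin ligase of the sarcomere) and Klhl40 (a stabilizer of thin filament proteins). Trim54 had 0, 3, 20 and 23 counts (3.40, edgeR adjusted p = 0.0091), and Klhl40 had 3, 8, 31 and 37 (2.25, adjusted p = 0.0085; 0.051 without fructose library 2). Both values rest on few control counts: without control library 2 they were 7.34 and 3.14, the first fitted against a count of 0 and no bound, and without control library 1 they were 2.41 and 1.68.

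The giant proteins that the Z-disc anchors rose. In the fit on all libraries without removal of trends, their log2 fold changes were above those of 9 of the 10 genes. This difference was not tested. Ttn (titin) had 50 and 72 counts in control and 299 and 308 in fructose (log2 fold change 1.96, edgeR adjusted p = 1.8e-04), and Neb (nebulin, along the thin filament) had 11 and 31 against 105 and 115 (2.03, adjusted p = 0.0030). Neb depended on the control libraries, at 3.0 without library 2 and 1.44 without library 1. Ttn and Neb encode very long transcripts, and with the trends with length and GC content removed the values were 1.03 and 1.39, still past the threshold. The ranking above 9 of the 10 genes was lost in that fit. Actn3 (1.60), Tcap (1.68), Myot (1.44) and Csrp3 (2.65) were above both. Actn2 (1.32) and Ldb3 (1.22) lay between Ttn and Neb, and Myoz1, Myoz2, Myom1 and Myom2 were below both. The partners with the highest level per length are not confined to muscle and did not pass the test. They were Sqstm1 (p62, an autophagy receptor; -0.17, edgeR adjusted p = 0.14), Fhl1 (a LIM protein; -0.01, adjusted p = 0.96) and Capzb (the actin capping protein; -0.15, adjusted p = 0.19). Sqstm1 and Capzb also had the lowest values of the tested partners, together with Obsl1 (-0.14, adjusted p = 0.30), a cytoskeletal adaptor found in many cell types, which was called lower with the length trend removed (-0.37, adjusted p = 0.017).

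Markers of other cells were read beside these genes. The 26 skeletal muscle genes, which include Acta1 (skeletal actin), fast and slow myosins and troponins, summed to 340.2 and 451 CPM in control and 1005 and 798 in fructose, 2.28-fold higher, and 23 of the 24 tested rose with a median log2 fold change of 1.42. Acta1 was the most abundant, with 1796 and 2405 counts in control and 6900 and 4929 in fructose. Their part in the result was not tested. Of the 10 myogenic progenitor genes, 5 were tested and none was called, with a median log2 fold change of 1.06. Pax3 was at 0 in all libraries, and the sum was 20.2 ± 2.43 CPM in control and 23.2 ± 0.0782 in fructose (SD, n = 2). Of the 14 cardiac genes, 2 were high enough to be tested and neither passed, namely Tbx5 with 117, 118, 78 and 124 counts (edgeR adjusted p = 0.079) and Hcn4 with 21, 25, 22 and 36 (adjusted p = 0.97). Among the others, Nppb, Nkx2-5, Tbx20, Bmp10 and Gata4 had no count in any library, and the cardiac myosin Myh6 had 0, 0, 2 and 5. The cardiac sum was 7.49 and 8.37 CPM in control against 5.13 and 7.06 in fructose. Smooth muscle genes summed to 195 and 214 CPM in control and 208 and 176 in fructose (1 of 8 tested rose), and brown adipocyte genes to 24588 and 26426 against 24403 and 22577 CPM (3 rose and 3 fell of 13), with Ucp1 at a log2 fold change of -0.10 (edgeR adjusted p = 0.59). The shares called over all tested genes were 15.5% higher and 10.7% lower.

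Set against the skeletal muscle genes of the same library, the 10 genes together were at 73.2 and 78.5 CPM per 1000 CPM in control and 78.2 and 72.6 in fructose (75.9 ± 3.76 against 75.4 ± 4.0, SD, n = 2). The groups overlapped, with a ratio of means of 0.994. By gene, 8 of the 10 overlapped on this scale, for example Actn2 (22.5 and 24 against 25.2 and 20.8) and Tcap (2.64 and 2.58 against 2.86 and 2.61). Csrp3 was above in both fructose libraries (0.465 and 1.60 against 3.96 and 1.84), and Myoz1 was below in both (10.4 and 11.6 against 7.88 and 8.14). These ratios carry no test, and the share of all genes that stand apart on this scale was not computed. On the CPM scale, 33.4% of all tested genes were above and 31.6% below in both fructose libraries. The nearest libraries of Csrp3, control library 2 and fructose library 2, held only 13 and 36 counts. Without Acta1 in the denominator the ratio of means was 0.983, without Acta1, Mylpf, Mb, Myh8 and Myl1 0.889, and with the geometric mean of the muscle genes 0.814, and with the last 2 denominators the sum of the 10 genes was below in both fructose libraries. Csrp3 stayed above and Myoz1 below in all 3, and in the last 2 Actn2 and Tcap were below as well.

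**Figure D4:**
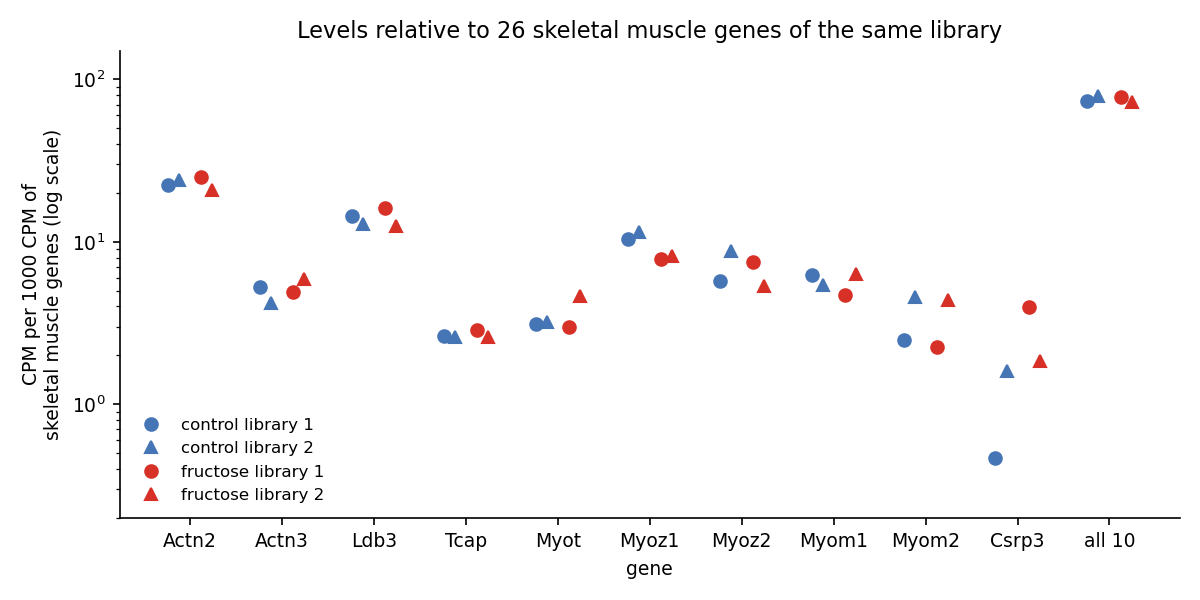
CPM of each of the 10 genes, and of all 10 together, per 1000 CPM of 26 skeletal muscle genes in the same library (log axis), with blue for control and red for fructose. The groups overlap for the sum and for 8 genes, with Csrp3 higher and Myoz1 lower in both fructose libraries. No test was made, and the share of all genes that stand apart on this scale was not computed.

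The 10 genes also differed between libraries of the same group, and not all in the same way. Control library 2 was above control library 1 for all 10, from 1.05-fold in Actn3 to 4.55-fold in Csrp3. In the fructose group, library 1 was above library 2 for 7 genes, led by Csrp3 (2.71-fold), Myoz2 (1.75-fold), Ldb3 (1.63-fold) and Actn2 (1.52-fold), and below it for Myom1 (0.935), Myot (0.809) and Myom2 (0.642). Genes of slow fibres were also higher in fructose library 1, with Myh7 (slow myosin) at 2.37-fold, Tnnt1 at 1.80-fold and Tnni1 at 1.77-fold. The fast and developmental genes spread over a wide range, from 0.995 for the perinatal myosin Myh8 through 1.35-fold for Tnnt3, 1.37-fold for Tnni2 and 1.62-fold for Myh1 to 1.82-fold for Myh2 and 1.96-fold for the embryonic myosin Myh3, so the ratios did not sort these genes by fibre type. These comparison genes were chosen after their values were seen, and the ratios are a description of 2 libraries each.

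**Figure D5:**
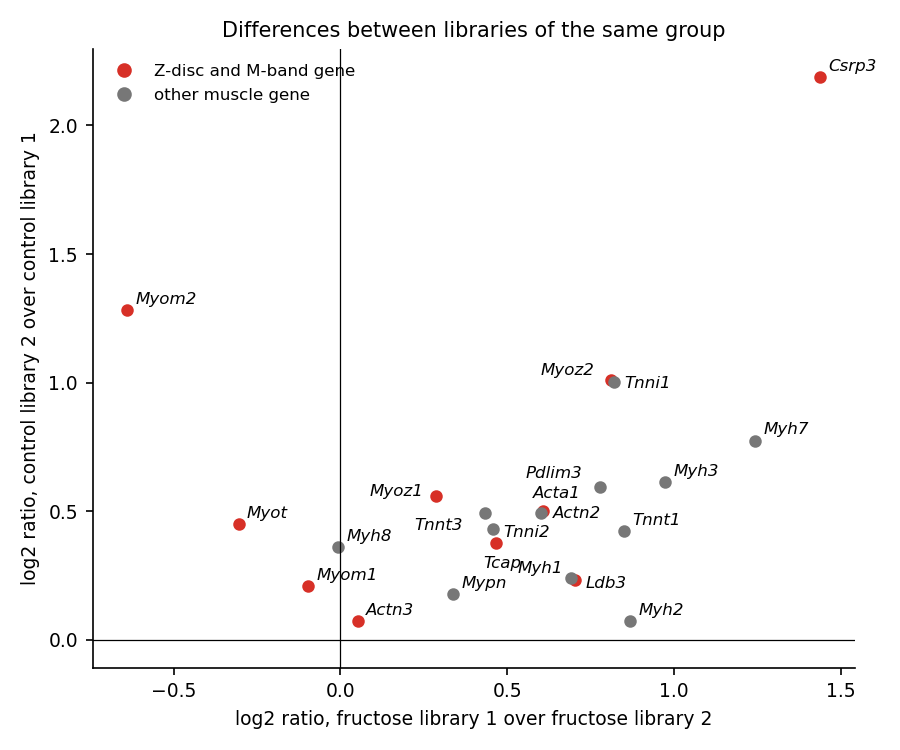
Log2 ratio between the 2 fructose libraries (library 1 over 2, horizontal axis) and between the 2 control libraries (library 2 over 1, vertical axis) for the 10 genes (red) and other muscle genes (grey). All red points lie above 0 on the vertical axis, Csrp3 lies at the top right, Myoz2 lies on Tnni1, and Myom2, Myot and Myom1 lie to the left of 0.

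The mean profile of the 10 genes over the 4 libraries was matched most closely by Tcap and Actn2 among themselves (root mean square difference of 0.11 and 0.12 on the log2 CPM scale) and least by Csrp3 (0.81) and Myom2 (0.41). Among tested genes outside every list, the 5 with the nearest profile over these 4 libraries were Eml5 (0.026), Cox6a2 (0.035), Sln (0.036), Casq2 (0.063) and Ints6l (0.075). Of these, 3 belong to striated muscle, namely Cox6a2 (the muscle form of a cytochrome c oxidase subunit; 28, 40, 118 and 102 counts), Sln (sarcolipin, a regulator of the calcium pump; 53, 78, 223 and 179) and Casq2 (calsequestrin 2, a calcium store protein; 100, 144, 390 and 309). Their log2 fold changes were 1.34, 1.27 and 1.17, and values near those of the 10 genes follow from choosing by profile. How many of all tested genes belong to striated muscle was not counted. Eml5 (16, 23, 66 and 57 counts) and Ints6l (15, 23, 57 and 55) had values of 1.3 and 1.2, which did not pass in edgeR once the length and GC trends were removed (0.78 and 0.66, adjusted p of 0.18 and 0.27). Without fructose library 1 their adjusted p-values were 0.11 and 0.12, and Ints6l also missed without control library 1 (0.10) and fructose library 2 (0.078). A likeness over 4 libraries describes these libraries and says nothing of shared control.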

How the data were processed

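RNA-seq of fetal BAT was analysed from the read counts per gene that the authors deposited. Per the labels, reads were filtered with fastp and mapped to mm10 with Bowtie2 (2.0.0.5) and TopHat2 (2.0.0), and transcripts were assembled with StringTie (2.2.0), while the authors tested with DESeq2. The counting tool and its strand setting were not given in the sources used here. Gene names came from GENCODE M21, and the 4 tables of single libraries were identical to the whole table.

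Genes kept by filterByExpr (12888) were scaled by TMM and tested with edgeR 4.0.16 (R 4.3.3), using glmQLFit and glmQLFTest, two-sided, with Benjamini-Hochberg adjustment and a threshold of 0.05. The SE was the log2 fold change divided by the square root of F. Intervals for counts and the floor of 3 counts cover counting error only. The depth of 18542897 to 23645147 counts put that floor at 0.127 to 0.162 CPM. With 2 libraries per group and no statement that they came from separate litters, p-values measure only the spread between these libraries, which may be technical. Replicates of a group differed by more than sampling noise (chi-square per degree of freedom of 13.7 and 8.83).

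Named were the 10 genes, their family relatives, the partners with the 3 highest levels per length and the 3 highest and 3 lowest log2 fold changes, titin and nebulin, the 5 nearest profiles (mean of at least 1 CPM, prior count of 2), and the top gene and defining genes at 0 of each marker list. Some items that these rules select are not reported here. The members and lists were chosen with earlier results of these data known. The other denominators for muscle genes and the genes compared within groups were chosen after seeing the data.

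Alternatives were DESeq2 1.42.0, its size factors (RLE) in edgeR, library size alone, no filter, at least 10 counts in every library, removal of trends with gene length and GC content (lowess, span 0.3), leaving out mitochondrial genes, the replicate number as a block, and leaving out each library, where the lone library of a group is assumed to vary like those of the other. The fits were tested on simulated data.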

Additional observations from a re-analysis of the deposited data

How the results depend on the processing

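Of 149 values of the 10 genes under 15 alternatives, none changed sign, 131 stayed on the same side of the threshold, 13 lost it and 5 (all Myom2) gained it. Actn2, Actn3, Ldb3 and Myom1 passed in all 15. Csrp3 had no value with at least 10 counts in every library. The number of the 10 called higher was 6 with DESeq2, 8 to 10 in the other fits on all libraries, and 6 to 10 with a library left out (6 without fructose library 1), with a median log2 fold change of 1.04 to 1.45 in the latter. The replicate numbers are only names: differences between libraries 1 and 2 of the groups had a correlation of -0.027 over genes, and a replicate block gave 10 of the 10 called higher, with 2117 genes higher and 1441 lower. Genes called higher (2001) were 1279 with DESeq2, 1271 with the length trend removed, 1091 with the GC trend removed, 699 with both and 936 with both and a replicate block, and genes called lower (1379) were 859 with library size alone and 771 with both trends removed. With a library left out they were 1207 to 2225 and 485 to 1700. Of the family relatives and partners, 24 rose, against 14 with DESeq2, 15 with both trends removed and 12 to 27 with a library left out, and 2 fell, against 1 with the GC trend or both removed (with or without the block) and 1 to 2 with a library left out. Log2 fold changes near 0 turned positive for Actn1 (0.038 with library size alone, 0.060 with the GC trend removed, 0.015 with both, with or without the block), Pdlim1 (0.032, library size), Fhl1 (0.053, library size; 0.0031, at least 10 counts; 0.026, length; 0.038, both, with or without the block; -0.091 to 0.078 with a library left out), Pdlim2 (0.053, GC; 0.017, both; 0.020, both with the block; -0.21 to 0.020 with a library left out), Obsl1 (0.11, GC) and Pdlim7 (-0.47 to 0.027 with a library left out). The cause was not tested. Counts under 100 in both control libraries limit the precision of 8 of the 10 genes.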
